A study of Mus musculus with 8 samples.

Results

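Chemokine receptors, the G protein-coupled receptors through which leukocytes and stromal cells respond to chemokine gradients, were followed here in subcutaneous mouse tumours with and without induction of the chemokine CXCL14. The group held 9 of the 18251 genes of the deposited read count table, chosen by gene symbol: Ccr1, Ccr2, Ccr7, Ccr8, Cxcr3, Cxcr4, Cxcr6, Cx3cr1 and Ackr3. All 9 passed the filter on low counts. The tumours grew from MC38 cells, a mouse colon cancer line, that carried TetOn-CXCL14, a construct that makes CXCL14 in the presence of the tetracycline analogue doxycycline (DOX), in male C57 mice that were 7 weeks old at tumour formation. The 4 DOX-induced tumours came from mice given 1 mg/mL DOX in their drinking water for 3 days, and the 4 control tumours carried the same construct and were labelled untreated, with 1 mouse per tumour. The labels give 300 mm3 both for the start of DOX and for harvest, and they do not say whether the TetOn-CXCL14 cells are a single clone. Tumours with DOX but without the construct were not analysed here, so what DOX does and what CXCL14 does cannot be told apart.

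Each receptor reads a small set of ligands, and its presence marks certain cells. CCR2 brings monocytes out of the blood, CCR1 is carried by monocytes, macrophages and neutrophils, and CX3CR1 marks resident-type monocytes and many macrophages. CXCR3 and CXCR6 are found on activated T cells, CCR8 on regulatory T cells in tumours, and CCR7 on naive T cells and on dendritic cells that leave for the lymph node. CXCR4 is expressed broadly on leukocytes and on many tumour cells, and ACKR3 is an atypical receptor that binds and removes CXCL12 rather than signalling through G proteins.

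Library totals ran from 18685975 to 19307481 counts over the 8 tumours. Cxcl14 itself stood at 9.23 ± 0.637 CPM without and 24.1 ± 7.21 CPM with DOX (SD, n = 4 each), with no overlap; the log2 difference was 1.38 ± 0.20 (SE), with adjusted p-values of 0.387 (edgeR) and 1.06e-06 (DESeq2). In edgeR's quasi-likelihood test 1 of 13436 genes, or 0.00744%, passed a Benjamini-Hochberg adjusted p of 0.05. Without correction 1559 genes, or 11.6%, had p under 0.05. DESeq2 called 79 of 13964 genes, or 0.566%. The median log2 fold change (DOX minus control) of all tested genes was -0.01. In the bulk tumour RNA 3 epithelial marker genes were low: Epcam had 0 to 7 counts, Krt18 0 to 2 and Krt8 6 to 19 in the 8 tumours. The share of this RNA that came from the cancer cells was not measured. The leukocyte marker Ptprc stood at 93.0 to 135 CPM in control and 117 to 238 CPM in DOX tumours.

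Of the 9 receptor genes, 5 lie on chromosome 9 in GRCm38.p6, in pairs or clusters of related genes. Cxcr6 (123806477 to 123811754), Ccr1 (123962126 to 123968692) and Ccr2 (124101918 to 124109140) sit within 302.7 kb of each other, and 23836 bases separate Cx3cr1 (120048683 to 120068296) from Ccr8 (120092133 to 120094906). Ackr3 (90203980 to 90215724) and Cxcr4 (128588199 to 128592299) are on chromosome 1, Ccr7 (99144199 to 99155077) on chromosome 11 and Cxcr3 (101731535 to 101734147) on chromosome X. All are protein-coding, and the values are gene totals that were not resolved to exons.

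Promoter sequences from RefSeq (GRCm38.p6, 250 bases before to 50 bases after the annotated start) were used for 8 of the 9 genes. For Ccr2 the table's start lies inside the gene as placed above, so its window is not upstream of the whole gene. The pair with the largest fold changes in DOX tumours, Cxcr6 (chr9:123806227-123806526, plus strand) and Ccr8 (chr9:120091883-120092182, plus strand), is shown beside the pair that binds CXCL12, Cxcr4 (chr1:128592250-128592549, minus strand) and Ackr3 (chr1:90203730-90204029, plus strand). Capitals mark TATAAA on either strand, the letters of a TATA box. The sequences run 5′ to 3′ along each gene.
Cxcr6: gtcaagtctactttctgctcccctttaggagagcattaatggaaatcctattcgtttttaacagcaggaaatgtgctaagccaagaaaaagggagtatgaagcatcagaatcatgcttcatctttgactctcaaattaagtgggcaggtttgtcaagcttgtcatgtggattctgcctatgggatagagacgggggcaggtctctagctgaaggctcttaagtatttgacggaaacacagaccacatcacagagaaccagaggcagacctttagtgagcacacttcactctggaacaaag
Ccr8: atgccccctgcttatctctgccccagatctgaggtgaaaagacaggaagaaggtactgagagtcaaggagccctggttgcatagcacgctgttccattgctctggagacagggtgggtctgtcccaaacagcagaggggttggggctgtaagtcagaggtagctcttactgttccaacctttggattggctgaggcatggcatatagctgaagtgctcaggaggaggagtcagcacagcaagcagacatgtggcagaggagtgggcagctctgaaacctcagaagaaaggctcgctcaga
Cxcr4: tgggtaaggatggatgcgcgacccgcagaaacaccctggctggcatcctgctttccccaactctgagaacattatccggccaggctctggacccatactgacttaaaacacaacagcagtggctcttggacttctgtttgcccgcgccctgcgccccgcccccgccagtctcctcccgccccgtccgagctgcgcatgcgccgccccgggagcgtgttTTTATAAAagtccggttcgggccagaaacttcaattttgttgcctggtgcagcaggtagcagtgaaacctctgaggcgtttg
Ackr3: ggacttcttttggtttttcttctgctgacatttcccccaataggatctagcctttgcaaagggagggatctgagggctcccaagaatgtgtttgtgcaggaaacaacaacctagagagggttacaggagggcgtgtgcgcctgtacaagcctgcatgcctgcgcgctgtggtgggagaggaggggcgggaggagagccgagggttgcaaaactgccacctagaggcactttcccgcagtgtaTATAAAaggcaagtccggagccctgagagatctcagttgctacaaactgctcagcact
TATAAA occurred in 2 of the 8 promoters, those of Cxcr4 (overlapping matches on the 2 strands, beginning 30 and 32 bases before the start) and Ackr3 (8 bases before), against 13.6% of 32851 RefSeq promoter windows of this length. The Cxcr4 window held 20 CG dinucleotides and 59.3% G and C, the Ackr3 window 8 and 54.0%, the Cxcr6 window 3 and 44.3%, and the Ccr8 window 2 and 54.0%. The median over all windows was 7 CG dinucleotides. Neither ACGTG, the core bound by hypoxia-inducible factors, nor AGGTGT, a T-box half-site, occurred on either strand in any of the 8 windows, while 19.6% and 13.7% of all windows held them.

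Per length, Cx3cr1 had the highest mean level and was the most abundant receptor transcript in 6 of 8 tumours, and Ccr8 was the least abundant in 8 of 8. In the deposited FPKM, which scale read counts to gene length and library size, the mean level over the 8 tumours was 30.5 for Cx3cr1, 16.7 for Cxcr4, 12.2 for Ccr1, 12.0 for Ackr3 and 11.2 for Ccr2. The receptors of lymphocytes and migrating dendritic cells lay below these, with 4.78 FPKM for Cxcr6, 2.29 for Ccr7, 1.86 for Cxcr3 and 0.751 for Ccr8. In all 8 neighbouring pairs of this order the ranges over tumours overlapped. Within a tumour the order was steadier for some pairs than for others. Cx3cr1 was above Cxcr4 in 7 of 8 tumours and below it in DOX tumour 4, with 26.3 against 36.4 FPKM. In control tumour 1 Ccr1 and Ccr2 were above Cx3cr1, with 23.5 and 21.9 against 11.5 FPKM, and Cxcr3 was above Ccr8 in 8 of 8. Ccr1 was above Ackr3 in 3 of 8, so their order is not resolved.

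Cxcr6, Ccr8 and Ccr7 had the largest differences between DOX and control tumours, at 2.98-fold, 2.69-fold and 2.32-fold higher mean levels in the fit. None of the 9 genes passed edgeR's adjusted threshold, and DESeq2 called Cxcr6 alone. At an unadjusted p under 0.05, 3 of the 9 were higher in DOX tumours and 0 lower, against 7.65% and 3.95% of all genes tested. The groups did not overlap in 1 of the 9, Ccr8, against 5.66% of all genes, or 3.23% for those higher in DOX tumours. The median log2 fold change of the 9 was 0.54, with 7 above and 2 below 0, and 46.8% of all tested genes were above 0. These counts describe the 9 genes and do not test them as a group.

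**Figure D1:**
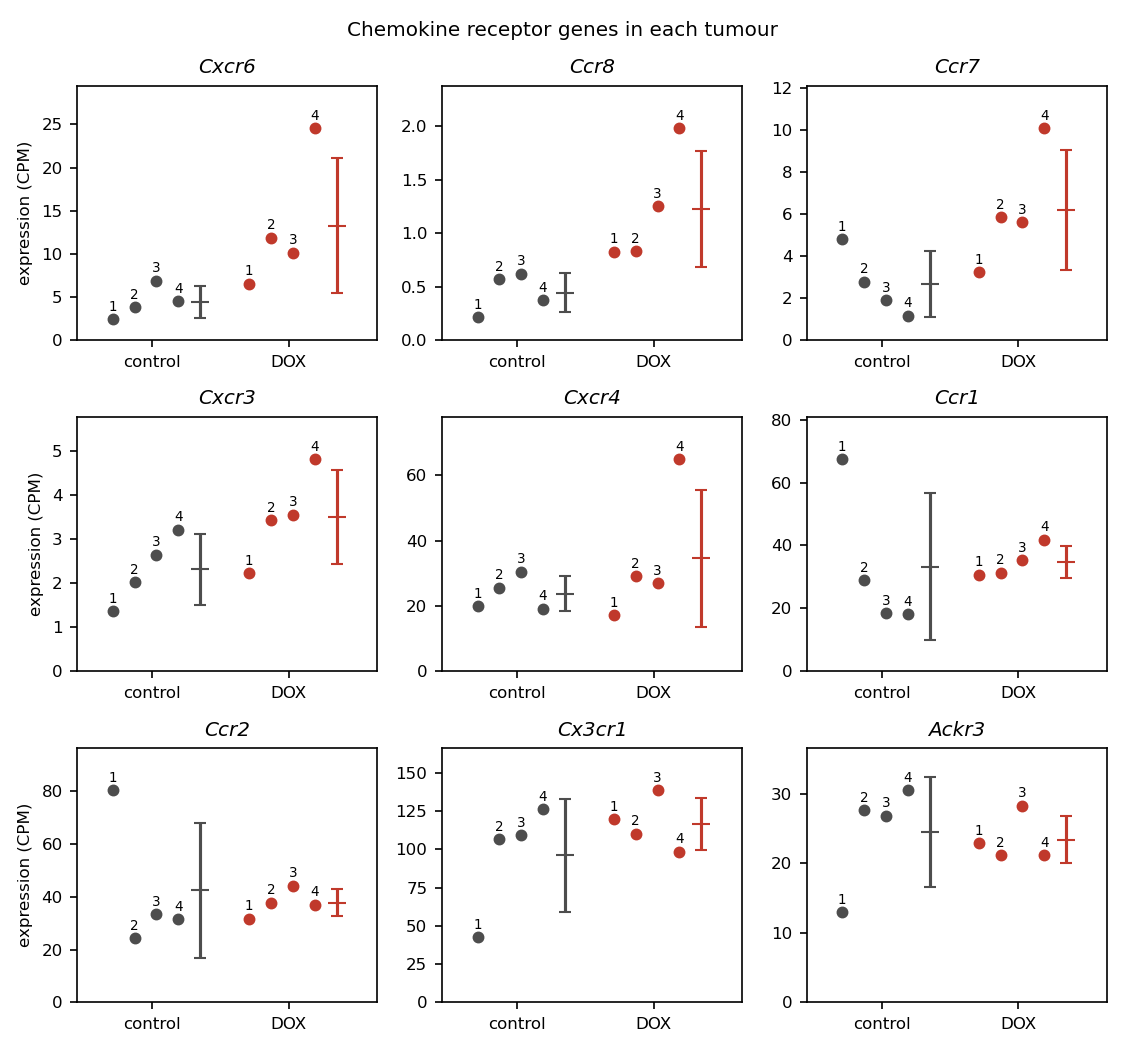
Expression in CPM (read counts scaled to library size, linear axes from 0) of the 9 receptor genes in each tumour, numbered by replicate within the control and DOX groups; the bar beside each group is the mean with SD (n = 4). DOX tumour 4 is the highest point for Cxcr6, Ccr8, Ccr7, Cxcr3 and Cxcr4, and control tumour 1 stands far above the other controls for Ccr1 and Ccr2 and far below them for Cx3cr1 and Ackr3.

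Cxcr6 encodes the receptor of CXCL16 and is carried by activated and tissue-resident T cells. Control tumours 1 to 4 had 2.46, 3.84, 6.90 and 4.56 CPM of it, and DOX tumours 1 to 4 had 6.57, 11.9, 10.1 and 24.5 CPM. DOX tumour 1 lay just below control tumour 3, so the groups overlapped by that pair, and DOX tumour 4 was the highest of all. The means were 4.44 ± 1.86 and 13.3 ± 7.82 CPM (SD, n = 4 each), a log2 fold change of 1.58 ± 0.44 (SE) with an adjusted p of 0.387 in edgeR and 0.0267 in DESeq2. Without DOX tumour 4 the log2 fold change was 1.10 (edgeR adjusted p = 0.796), and over all alternatives it lay between 1.10 and 1.87 with adjusted p-values from 0.0267 to 0.796.

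Ccr8 was the rarest of the 9 and the 1 member whose groups did not overlap. Its counts were 4, 11, 12 and 7 in control tumours 1 to 4 and 16, 16, 24 and 37 in DOX tumours, or 0.447 ± 0.186 against 1.22 ± 0.541 CPM (SD, n = 4 each). The lowest DOX tumours held 16 counts and the highest control tumour 12, so the gap is a few reads wide. In the fit the log2 fold change came to 1.43 ± 0.41 (SE), with an adjusted p of 0.387 in edgeR and 0.151 in DESeq2. On the log2(FPKM + 1) scale, which compresses rare genes, the difference was 0.56 (limma adjusted p = 0.386).

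Ccr7, the receptor that guides dendritic cells and naive T cells to lymph nodes, stood at 4.81, 2.80, 1.92 and 1.18 CPM in the controls, by replicate number, and at 3.26, 5.86, 5.64 and 10.1 CPM after DOX. The groups overlapped, since control tumour 1 was above DOX tumour 1. For Ccr7 the log2 fold change was 1.21 ± 0.45 (SE, adjusted p = 0.394). It was 0.88 without DOX tumour 4 and 1.65 without control tumour 1.

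Cxcr3, which binds the interferon-induced chemokines CXCL9 and CXCL10, had 1.37, 2.02, 2.65 and 3.22 CPM in control and 2.23, 3.42, 3.55 and 4.81 CPM in DOX tumours. In 3 of 4 DOX tumours it was above every control, and DOX tumour 1 lay among them. Its log2 fold change was 0.60 ± 0.30 (SE, adjusted p = 0.470), and 0.39 on the log2(FPKM + 1) scale.

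The T cell markers were also on the higher side. The list of Cd3d, Cd3e, Cd3g, Cd2, Cd5, Cd6, Trat1 and Themis had all 8 members above 0 in log2 fold change, against 46.8% of all genes. Of these, 7 had an unadjusted p under 0.05, against 7.65% of all genes on the higher side, 0 passed with edgeR and 1 with DESeq2, and none was at 0 in every tumour. Their summed level was 14.3 to 32.7 CPM in control and 31.9 to 109 CPM in DOX tumours. Ranked by the mean log2 CPM of the 8 markers, the 8 tumours fell in the same order as by Cxcr6, from control tumour 1 up to DOX tumour 4. In bulk tissue, more cells of a type and more RNA per cell cannot be told apart.

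Set against the T cell markers, the differences of Cxcr6, Ccr8 and Ccr7 between the groups were smaller, and that of Cxcr3 turned sign at nearly the same size. The log2 CPM of Cxcr6 minus the mean log2 CPM of the markers averaged 0.70 ± 0.17 over the controls and 1.06 ± 0.11 over the DOX group (SD, n = 4 each), a difference of 0.36 (exact two-sided permutation p = 0.0571). For Cxcr3 the same quantity was -0.18 ± 0.28 and -0.72 ± 0.31 (SD, n = 4 each), a difference of -0.53 (exact permutation p = 0.0571), against a log2 fold change of 0.60 for the gene itself. Ccr8 and Ccr7 differed by 0.13 and 0.12 (exact permutation p = 0.686 and 0.943). For Ccr7 the relative level spread widely without DOX, at 1.45, 0.22, -0.87 and -1.15 by replicate number. After DOX it ran from -0.10 to 0.23. Its small mean difference therefore does not show that Ccr7 followed the T cell markers. Ccr7 relative to mature dendritic cell markers was not tested. The differences of these 4 genes were among 10 such differences, and the smallest p adjusted over the 10 was 0.286. The smallest unadjusted p the design allows is 0.0286.

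**Figure D2:**
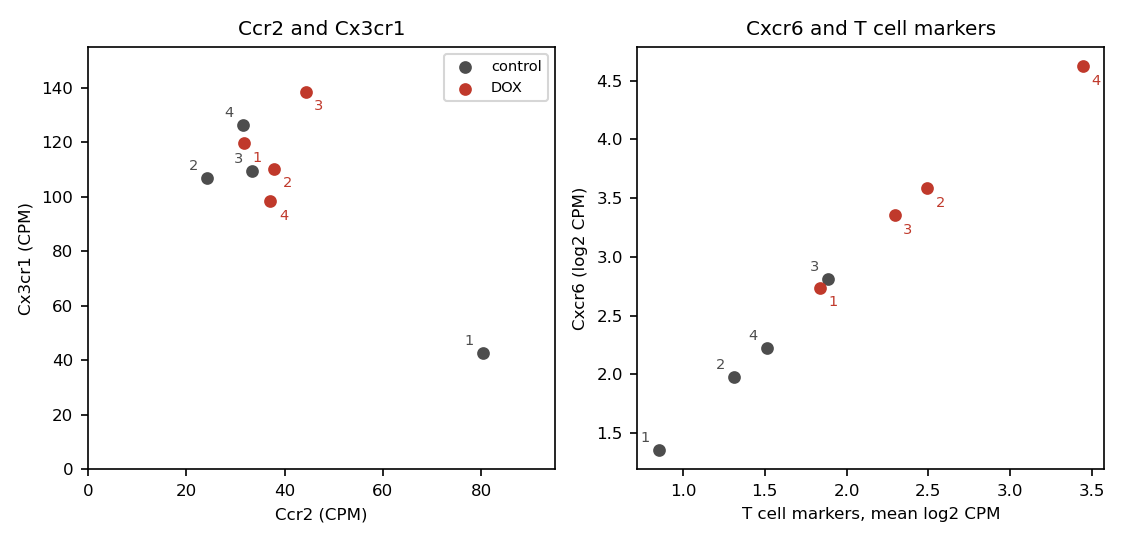
Left, Ccr2 against Cx3cr1 in CPM; right, Cxcr6 (log2 CPM) against the mean log2 CPM of 8 T cell markers; each point is a tumour, numbered by replicate and coloured by group. Control tumour 1 lies alone at 80.4 CPM of Ccr2 and 42.5 CPM of Cx3cr1, and on the right the 8 tumours keep the same order on both axes.

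Other cell types that carry these receptors were measured by lists of their own, and hypoxia genes and skeletal muscle markers were measured beside them. In the lists that follow 0 genes passed with edgeR, and DESeq2 called 1 mature dendritic cell marker and 2 hypoxia genes. At an unadjusted p under 0.05, 7.65% of all genes lay on the higher side after DOX and 3.95% on the lower. The regulatory T cell markers Foxp3, Il2ra, Ctla4 and Ikzf2 were all on the higher side, 3 of the 4 with an unadjusted p under 0.05, and their sum was 12.8 to 20.9 CPM in control and 15.9 to 38.6 CPM in DOX tumours. The mature dendritic cell markers Fscn1, Ccl22, Ccl17, Il12b and Cd40 were all on the higher side, 3 of 5 with an unadjusted p under 0.05, namely Il12b, Ccl22 and Cd40 at log2 fold changes of 1.68, 1.16 and 0.92. Their sum, 396 to 456 CPM in control and 438 to 475 CPM after DOX, was mostly Fscn1, whose log2 fold change was 0.06. The B cell markers Cd79a, Ms4a1 and Pax5 had at most 14 counts in any tumour. Cd79b, the only B cell marker with enough counts to be tested, had 22 to 47 counts in control and 31 to 73 in DOX tumours. Its log2 fold change was 0.39 ± 0.31 (SE). Hypoxia genes lay on the lower side in 7 of 7 tested, 5 with an unadjusted p under 0.05, summing to 2050 to 3373 CPM in control and 1578 to 2101 CPM in DOX tumours. Skeletal muscle markers summed to 1.37 to 37.9 CPM in control and 12.9 to 147 CPM in DOX tumours, with 4 of 6 at an unadjusted p under 0.05. Their part in the receptor values was not tested.

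Cxcr4, the CXCL12 receptor, had a group difference that rested on a single tumour. It stood at 19.9, 25.6, 30.5 and 19.2 CPM in the controls and at 17.2, 29.2, 27.1 and 64.9 CPM in the DOX group, each by replicate number. The lowest and the highest value of all 8 tumours were both in the DOX group. The log2 fold change was 0.54 ± 0.37 (SE, adjusted p = 0.605) and 0.045 without DOX tumour 4. Relative to Ptprc, the pan-leukocyte phosphatase gene, the log2 level of Cxcr4 differed by -0.15 between the groups (exact permutation p = 0.657).

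Ackr3, the scavenger of CXCL12, had 12.9, 27.7, 26.9 and 30.5 CPM in control and 22.9, 21.2, 28.3 and 21.2 CPM in DOX tumours. Control tumour 1 was the lowest of all, and the other 3 controls were above 3 of the 4 DOX tumours. The log2 fold change was -0.07 ± 0.24 (SE, adjusted p = 0.931) and -0.28 without control tumour 1 (adjusted p = 0.446). The ratio of Cxcr4 to Ackr3 was 1.54, 0.925, 1.14 and 0.629 in control tumours 1 to 4 and 0.753, 1.38, 0.956 and 3.06 in DOX tumours 1 to 4. These ratios did not separate the groups (exact permutation p = 0.514 on the log2 scale).

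For the receptors of monocytes and macrophages the groups overlapped, and in each of them control tumour 1 was the farthest from the other controls. Ccr1 had 67.3, 29.1, 18.6 and 18.1 CPM in control and 30.7, 31.4, 35.4 and 41.9 CPM in DOX tumours. Its log2 fold change was 0.07 ± 0.40 (SE, adjusted p = 0.960). Without control tumour 1 every DOX tumour lay above every control, and the log2 fold change was 0.67 with an adjusted p of 0.446.

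Ccr2 had 80.4, 24.3, 33.5 and 31.6 CPM in control and 31.8, 37.9, 44.3 and 37.1 CPM in DOX tumours, with control tumour 1 well above all others. Its log2 fold change was -0.17 ± 0.35 (SE, adjusted p = 0.880) and turned to 0.34 without control tumour 1 (adjusted p = 0.446). Cx3cr1 had 42.5, 107, 109 and 126 CPM in control and 120, 110, 139 and 98.5 CPM in DOX tumours, and here control tumour 1 was the lowest. Its log2 fold change was 0.28 ± 0.29 (SE, adjusted p = 0.743) and 0.032 without that tumour. Counts of Ccr2 and of Cx3cr1 were whole numbers in 0 of 8 libraries, as happens where a counting tool divides reads among genes. Their values are uncertain in that respect. The other 7 receptor genes had whole counts in 8 of 8. The same limit holds for Xcr1, Cxcr2, Cxcl9, Ccl9, Rac2 and Fermt3 below, and for some markers such as Cd3d and Ly6c2, each also whole in 0 of 8. Ccl3 had whole counts in 2 of 8 and Cxcl16 in 4 of 8.

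The ratio of Ccr2 to Cx3cr1 was 1.89 in control tumour 1 and 0.228 to 0.377 in the other 7 tumours. In the same tumour the monocyte markers Ly6c2, Plac8 and Chil3 stood at 52.9, 36.8 and 40.0 CPM, each the highest of the 8 tumours. Ly6c2 was nearly as high in DOX tumours 2 and 4, at 50.3 and 47.5 CPM, where the ratio was 0.343 and 0.377. Plac8 reached 27.1 CPM in DOX tumour 4, and Chil3 at most 6.02 CPM outside control tumour 1. The other monocyte markers did not all follow. Vcan was lowest in control tumour 1, at 268 CPM, and F13a1 was highest in it, at 8.14 CPM. Summed, the 5 monocyte markers were 406 to 518 CPM in control and 400.4 to 489 CPM in DOX tumours, with 2 on the higher side, 3 on the lower and 0 at an unadjusted p under 0.05. The sum was mostly Vcan, at 268 to 492 CPM in control and 317 to 450 CPM in DOX tumours.

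Macrophage markers were measured beside Ccr1, Ccr2 and Cx3cr1. All 8 of them (Csf1r, Adgre1, Cd68, Mrc1, C1qa, C1qb, C1qc and Mertk) lay higher after DOX, 7 with an unadjusted p under 0.05 against 7.65% of all genes. None passed with edgeR and 3 with DESeq2. Their sum was 1807 to 2148 CPM in control and 2472 to 4330 CPM in DOX tumours. Relative to the mean log2 CPM of these markers, Ccr1, Ccr2 and Cx3cr1 differed between the groups by -0.25, -0.55 and -0.15, with exact permutation p-values of 0.829, 0.286 and 0.657. Single tumours varied more: for Cx3cr1 the relative level was -1.88 to -0.51 in control and -1.74 to -0.70 in DOX tumours. In DOX tumour 4 the mean of the markers was the highest of all, while Cx3cr1 was the lowest of the DOX group. Relative to fibroblast and to endothelial markers, Ackr3 differed by 0.08 (exact permutation p = 0.829) and by less than 0.01.

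Neighbouring genes on chromosome 9 had unlike log2 fold changes, though the differences between them were not tested. Ccr8, with a log2 fold change of 1.43, is next to Cx3cr1, with 0.28. Beyond Cxcr6 (1.58) lie Xcr1, the receptor of cross-presenting dendritic cells, with 0.75 ± 0.48 (SE), Ccr1 with 0.07 and Ccr2 with -0.17. Fyco1, the gene that Cxcr6 lies within, had 0.11 ± 0.09 (SE).

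Of the 14 other chemokine receptor genes on the list, 4 had enough counts to be tested, 4 were on the higher side and 0 passed with either tool or at an unadjusted p under 0.05. Xcr1 had 3.71 to 18.2 CPM in control and 9.78 to 21.6 CPM in DOX tumours. Ccrl2, an atypical receptor, had 0.73 ± 0.42 (SE), Cxcr2, the neutrophil receptor, 0.18 ± 0.16 (SE), and Ccr10 0.08 ± 0.21 (SE). The 10 untested genes, among them Ccr4, Ccr6 and Cxcr5, had at most 16 counts in any tumour.

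Among the ligands of the 9 receptors, both ligands of CCR8 stood highest by p. Of the 17 ligand genes 14 were tested, with 12 on the higher side and 2 on the lower; 6 had an unadjusted p under 0.05, all higher, against 7.65% of all genes. The median log2 fold change was 0.64. None passed with edgeR, and DESeq2 called 3, Ccl1, Ccl8 and Ccl6. Ccl1, a CCR8 ligand made by activated T cells, had 0.601, 1.503, 1.66 and 2.09 CPM in control and 2.59, 5.45, 5.07 and 6.89 CPM in DOX tumours, without overlap. Its log2 fold change was 1.76 ± 0.38 (SE), with an adjusted p of 0.387 in edgeR and 0.0159 in DESeq2.

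Ccl8, which in the mouse also acts through CCR8, had 24.6, 63.3, 39.9 and 48.1 CPM in control and 91.3, 125, 175 and 385 CPM in DOX tumours, also without overlap. Its log2 fold change was 2.14 ± 0.47 (SE), with an adjusted p of 0.387 in edgeR and 0.0240 in DESeq2. Cxcl16, the ligand of CXCR6, had 105, 82.5, 107 and 88.8 CPM in control and 106, 141, 128 and 213 CPM in DOX tumours, where DOX tumour 1 overlapped with the controls. For Cxcl16 the log2 fold change was 0.62 ± 0.20 (SE, adjusted p = 0.387).

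The CCR1 ligands Ccl5, Ccl3, Ccl6 and Ccl9 had log2 fold changes of 1.49 ± 0.49, 1.31 ± 0.43, 1.21 ± 0.35 and 0.70 ± 0.38 (SE). Ccl7, listed for both CCR1 and CCR2, had 0.53 ± 0.29 (SE), and Ccr1 itself had 0.07. Cxcl9, a CXCR3 ligand, had 0.66 ± 0.33 (SE). With Ccl7, the other 6 tested ligand genes lay between -0.19 and 0.53, each with an unadjusted p of at least 0.100. The rest of these were Ccl2 and Ccl12 for CCR2, Cxcl10 for CXCR3, Cxcl12 for CXCR4 and ACKR3, and Cx3cl1 for CX3CR1. Control tumour 1 was again apart in Cxcl10, an interferon-induced gene, with 1192 CPM where the other 3 controls had 253 to 338 and the DOX group 364 to 580 CPM; this gene was chosen after its values were seen. The CCR7 ligands Ccl19 and Ccl21a were too low to be tested, at most 6 and 29 counts, and Cxcl11 was not analysed here.

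**Figure D3:**
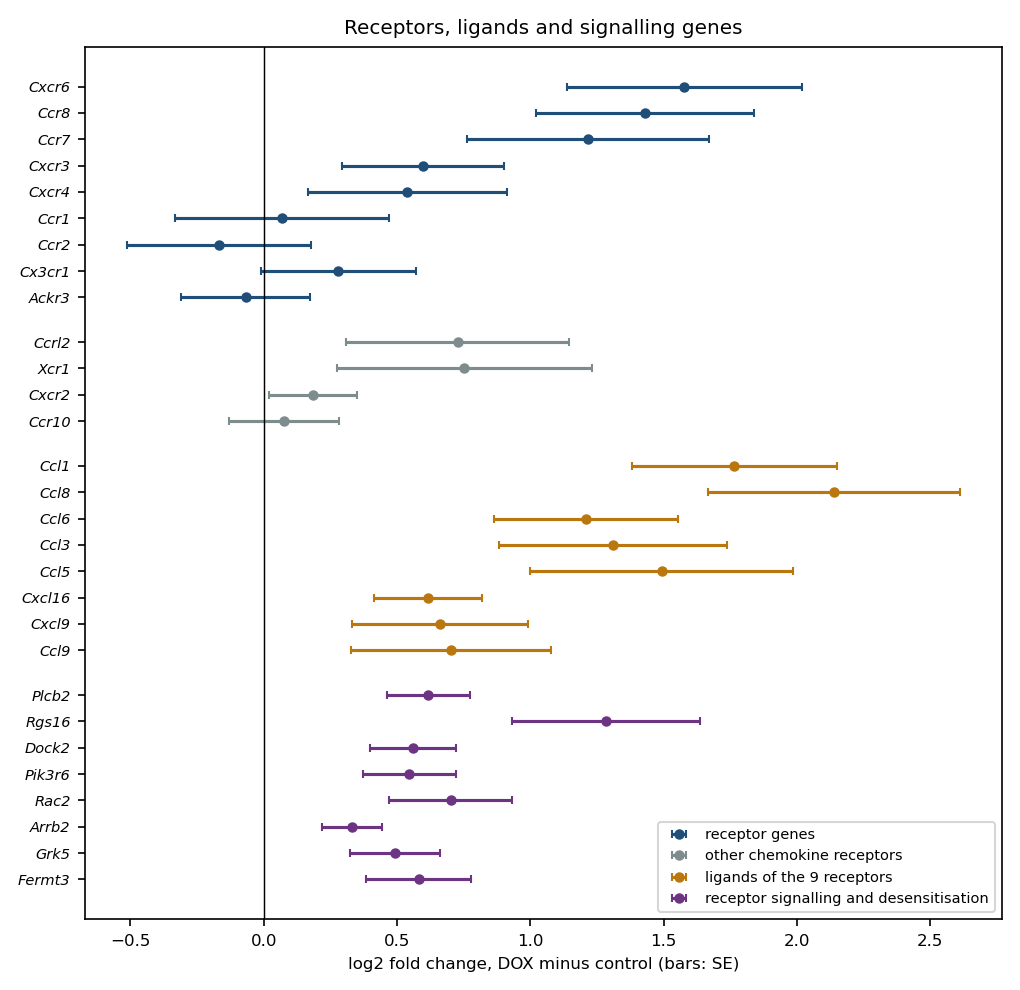
Log2 fold change (DOX minus control, bars SE, edgeR, 4 tumours a group) of the 9 receptor genes and of up to 8 genes with the smallest p from each of the lists of other receptors, ligands, and signalling and desensitisation genes. Ccl8 has the highest value at 2.14, Cxcr6 leads the receptors at 1.58, and Ccr1, Ccr2, Cx3cr1 and Ackr3 lie within an SE of 0.

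Genes that act below the receptors were nearly all on the higher side. Of 20 tested signalling and desensitisation genes 19 were higher and 1 lower, with a median of 0.48, where 46.8% of all genes were higher. Of the 20, 13 had an unadjusted p under 0.05, all higher, against 7.65% of all genes. None passed with edgeR and DESeq2 called 1. That gene was Rgs16, a regulator that shortens G protein signalling, at 11.9, 13.1, 20.3 and 18.5 CPM in control and 20.2, 39.3, 29.9 and 66.2 CPM in DOX tumours. DOX tumour 1 lay just below control tumour 3. For Rgs16 the log2 fold change was 1.28 ± 0.35 (SE), with an adjusted p of 0.387 in edgeR and 0.0245 in DESeq2. The leukocyte migration genes Dock2 and Rac2 had 0.56 ± 0.16 and 0.70 ± 0.23 (SE), the phospholipase gene Plcb2 0.62 ± 0.16, and the phosphoinositide 3-kinase subunit gene Pik3r6 0.55 ± 0.17. Of genes that switch receptors off, the beta-arrestin gene Arrb2 had 0.33 ± 0.11 and the receptor kinase gene Grk5 0.49 ± 0.17 (SE). Fermt3, a leukocyte integrin activator, had 0.58 ± 0.20. Several of these are leukocyte genes. The summed level of the list was 1451 to 1540 CPM in control and 1553 to 2154 CPM in DOX tumours, without overlap. Gnai2 alone made up 490 to 510 CPM of it in control and 522 to 626 CPM in DOX tumours. Ptprc overlapped between the groups, at 93.0 to 135 and 117 to 238 CPM, and its relation to the sum was not tested.

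Across the 8 tumours the receptor genes fell into patterns that crossed the groups. Of 36 pairs of the 9 genes, 23 had a Pearson r of log2 CPM above 0, and 0 passed an exact permutation test after Benjamini-Hochberg adjustment over the 36. With Pearson's r, 11 pairs had an unadjusted p under 0.05. Ccr8 and Cxcr6 came closest, with r = 0.93 (exact permutation p = 0.00141, adjusted 0.0509) and Spearman's rho = 0.93 (exact permutation p = 0.00223, adjusted 0.0804). Without control tumour 1 and DOX tumour 4, the 2 farthest from the median of Ccr8, r was 0.77 (exact permutation p = 0.0806), and for deviations from the group means it was 0.83. Cxcr3 and Cxcr6 had r = 0.90 and rho = 0.90 (exact permutation p = 0.00382 and 0.00456, adjusted 0.0687 and 0.0821), and r = 0.67 without the same 2 tumours (exact permutation p = 0.158), so neither relation passed without them. For deviations from the group means r was 0.87.

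Cx3cr1 and Ackr3 had r = 0.91 (exact permutation p = 0.0112, adjusted 0.101) and rho = 0.69 (p = 0.0694 by permutation, adjusted 0.278). Ccr1 and Ackr3 had r = -0.85 (exact permutation p = 0.00866, adjusted 0.101) and rho = -0.69 (p = 0.0694 by permutation, adjusted 0.278). Without control tumour 1 and the next farthest tumour from the median of the gene named first, r was 0.52 and -0.44 (exact permutation p = 0.292 and 0.450). Leaving out the farthest tumours also narrows the range of that gene, so the lower r cannot show that the relations rest on those tumours. For deviations from the group means, which keep control tumour 1, r was 0.99 and -0.87. Ccr2 and Cx3cr1 had r = -0.78 (exact permutation p = 0.0992, adjusted 0.235) and rho = -0.17 (exact permutation p = 0.703, adjusted 0.767), and r = 0.24 without control tumours 1 and 2. Over the 9 genes DOX tumour 4 was the highest tumour in 5 and control tumour 1 the lowest in 5 and the highest in 2.

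**Figure D4:**
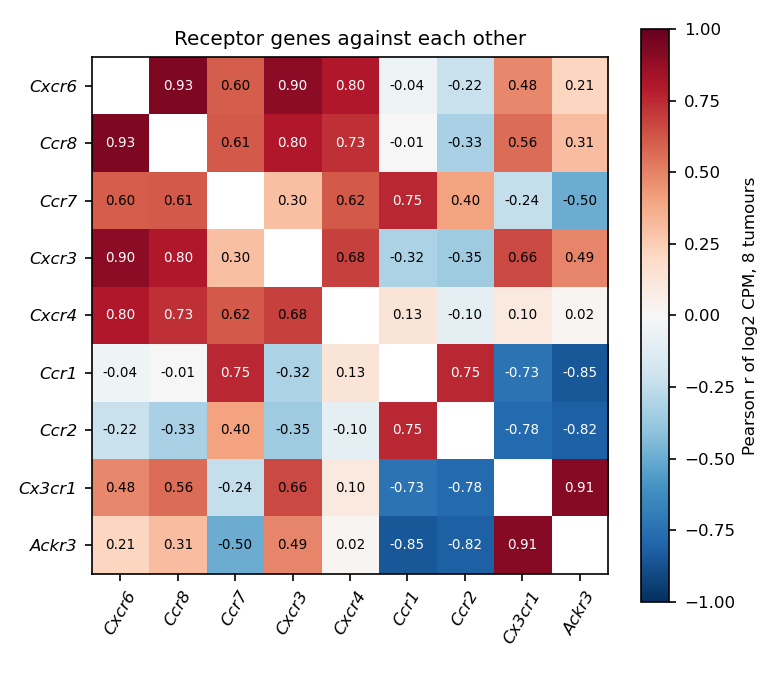
Pearson r of log2 CPM over the 8 tumours for each of the 36 pairs of receptor genes, coloured from -1 (blue) to 1 (red); the diagonal is blank. Cxcr6, Ccr8, Cxcr3 and Cxcr4 have r from 0.68 to 0.93 with each other, and Ccr1 and Ccr2 have r from -0.85 to -0.73 with Cx3cr1 and Ackr3.

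The genes whose pattern over the 8 tumours was most like each receptor were taken from 12244 tested, named genes by Pearson r of log2 CPM, as a description. Nearest to Ccr8 were Zap70, the T cell receptor kinase (r = 0.99), Lag3, an inhibitory T cell receptor (0.98), and Ggt5 (0.98). Nearest to Cxcr6 were Rasa3 (0.99), the receptor kinase gene Grk5 (0.99) and Cd8b1, the CD8 beta chain (0.99). Ccr7 was nearest to the actin regulator Vasp (0.99), the chemokine gene Ccl22 (0.98) and Cnpy3 (0.98). Cxcr3 was nearest to Shtn1 (0.99), Pip4k2a (0.98) and Lrmp (0.98).

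For the myeloid and stromal receptors the nearest genes were others. Ccr2 was nearest to Parp9 (0.98), Cdh1 (0.97) and the interferon-induced GTPase gene Gbp9 (0.97), and Ccr1 to Ms4a4a (0.98), Rab12 (0.98) and Abcd2 (0.98). Cx3cr1 was nearest to Gpr39 (0.99), the co-receptor gene Nrp1 (0.98) and Chrna1 (0.97), Ackr3 to the integrin gene Itga7 (0.98), Slc9a9 (0.97) and Gne (0.97), and Cxcr4 to the splicing factor gene Snrpb (0.98), Zmiz2 (0.97) and Vamp8 (0.96). All these r share the same 8 libraries, and 1 tumour far from the others can set a high r.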

How the data were processed

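RNA was measured by bulk mRNA sequencing in 8 tumours, 4 control and 4 DOX-induced, from 0.1 g of tissue each, per the labels' protocols. The authors deposited expected read counts and FPKM per gene, in a column for each tumour. HISAT, Bowtie2 and GRCm38.p6 are listed, per the submitters' processing notes, without roles or versions; for the counting tool, the annotation release and strand use: not given in the sources used here. Of the deposited values 64.9% were whole within 0.005, so the deposited read counts were taken to be expected counts; how reads were divided among genes was not tested. A table with 8 columns whose names match no sample label was not used.

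Expected counts were rounded. In edgeR 4.0.16 (R 4.3.3), filterByExpr kept 13436 genes, libraries were scaled by TMM, and the robust quasi-likelihood F test was adjusted by Benjamini-Hochberg over all genes tested at 0.05. The SE of a log2 fold change is its absolute value over the root of the F statistic. CPM is TMM-scaled, and log2 CPM uses a prior count of 2. DESeq2 1.42.0, limma 3.58.1 on log2 FPKM (pseudocounts 0.1 and 1), other scalings and filters, a replicate block and leaving out each tumour were alternatives. Exact permutation tests enumerate all 70 allocations of the tumours or all pairings, two-sided. Total counts were 18685975 to 19307481 per tumour. No 2 libraries agreed within sampling noise (chi-square per degree of freedom 5.25 to 71.7). The script was tested on simulated data.

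The 9 genes, the lists and the tests were chosen with earlier results of these data known. Named genes are the 9 receptors, at most 8 tested genes, by smallest p, of each list of other receptors, ligands and signalling genes, and the 3 genes of highest r per receptor; the cell type markers were fixed by name, and some genes of these lists are not reported here. Coordinates and promoters are RefSeq's, for the build the submitters name.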

Additional observations from a re-analysis of the deposited data

Results flagged for a closer look

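Among 29 genes checked in each of the 2 groups, 1 value stood apart by Dixon's test at the 95% level. Ccr2 was 80.4 CPM in control tumour 1, against 24.3 to 33.5 CPM in the other 3 controls, a gap of 0.837 of the group's range where 0.829 is the critical value. Chance gives such a value in about 1 of 20 groups, and 58 groups were checked. The same tumour was also highest in Ccr1 and lowest in Cx3cr1 and Ackr3 among the controls, without reaching that limit. The monocyte markers and Cxcl10 were outside this check, and Ccr2 was not the only gene far out in that tumour. Chil3 reached 40.0 CPM there, while no further control exceeded 1.40. For Plac8, Ly6c2 and Cxcl10 it had 36.8, 52.9 and 1192 CPM, and the next highest control had 7.21, 18.0 and 338. F13a1 was less apart, with 8.14 CPM and 6.63 in the next highest control. Vcan was lowest there, at 268 CPM, with 420 in the next lowest.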

How the results depend on the processing

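Of 152 values of the 9 receptor genes under up to 17 alternatives, 145 kept their direction and their side of the threshold, 6 changed sign and 1, Cxcr6 with DESeq2 (log2 fold change 1.57), passed. The genes that changed sign were those near 0: Ccr2 was 0.34 without control tumour 1; Ccr1 was -0.13, -0.14 and -0.03 without control tumour 3, control tumour 4 and DOX tumour 4; Ackr3 was 0.054 without control tumour 4 and 0.0014 with limma on log2(FPKM + 0.1). Leaving out each tumour gave -0.14 to 0.67 for Ccr1, -0.36 to 0.34 for Ccr2 and -0.28 to 0.054 for Ackr3. The count of receptor genes past the threshold was 0 in edgeR and 1 in DESeq2, and 0 when any tumour was left out. Over all genes 1 was called with edgeR, 79 with DESeq2, and 1 to 2 when each tumour was left out in turn. Of the 10 levels relative to markers, 0 had an unadjusted exact p under 0.05, 0 to 1 when a tumour was left out, and 1 with the median of the markers, namely Cxcr3 at -0.69 (exact permutation p = 0.0286, the smallest possible); with 10 differences no single one of that p can pass after adjustment. Relative to markers, some signs changed at values near 0. With the median, Ccr7 was -0.040 and Ccr8 -0.034, and with a prior count of 0.5, Ackr3 against endothelial markers was 0.011. Other sign changes were larger. Without control tumour 1, Ccr1 against macrophage markers went from -0.25 to 0.20 and Ackr3 against fibroblast markers from 0.08 to -0.38. Leaving out 1 tumour gave -0.23 to 0.63 for Ccr7, -0.49 to 0.20 for Ccr1, -0.46 to 0.059 for Cx3cr1, and for Ackr3 -0.38 to 0.45 against fibroblast and -0.30 to 0.21 against endothelial markers. The cause was not tested.

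The replicate block changed no call: with it 1 gene passed, and Cxcr6 had a log2 fold change of 1.51 (edgeR adjusted p = 0.198). Samples with the same number did not deviate together (correlation of deviations from the group means -0.02 to 0.09), so the numbers were not taken as pairs, and 1 of 4 control tumours correlated best with its own number. Depth limits Ccr8, with 4 to 37 counts per tumour; a filter of 50 counts left it without a value.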
